A study of Mus musculus with 2 samples.

Results

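The 39 genes described here encode the enzymes and regulators that make fatty acids and build them into triglyceride. These genes, and the lists of other genes and markers used below, were chosen by name with earlier results of these data known. All 39 were among the 20003 genes of the table of read counts. They fall into 7 steps, which are supply of acetyl-CoA and NADPH (4 genes), fatty acid synthesis (3), lipogenic regulation (3), elongation (7), desaturation (7), activation to acyl-CoA (4) and esterification (11). The series asked how blocking Hedgehog signalling alters the transcriptome of macrophages polarized to the M2 state, the alternative activation that interleukin 4 (IL-4) drives. It held 2 libraries of messenger RNA, 1 labelled M2+GANT61 and 1 labelled M2+DMSO. Per the labels both came from RAW 264.7, a line of mouse macrophages. Both were listed as receiving macrophage colony-stimulating factor (M-CSF, 20 ng/mL) and IL-4 (10 ng/mL), with 10% fetal bovine serum. The GANT61-labelled cells were given 10 µM GANT61, an inhibitor of the GLI transcription factors at the end of the Hedgehog pathway, and the DMSO-labelled cells the solvent dimethyl sulfoxide, in each case 4 h before IL-4. The protocols gave 15 min with IL-4 in one place and 24 h in another.

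Each group was a single library, so the conditions could not be tested against each other and no p-value is given. Levels are scaled read counts (CPM, counts per 1e6 reads) after TMM scaling, which evens out differences in library composition. Each ratio is the GANT61-labelled over the DMSO-labelled library, and the interval after it is an exact 95% interval that covers counting error only. A gene is called higher or lower by a rule of size, namely a ratio of at least 1.5 or at most its inverse, an interval that excludes 1 and a mean of at least 1 CPM. Summed over genes, the GANT61-labelled library held 57705874 reads and the DMSO-labelled library 61632784. Values marked "with GANT61" and "with DMSO" are those of the libraries so labelled.

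Both libraries held markers of several cell types beside those of macrophages. Of 14 adipocyte markers, 11 reached 10 CPM in both libraries, and so did 8 of 8 fibroblast markers, 6 of 6 endothelial markers, 6 of 7 markers of luminal epithelium and 14 of 14 macrophage markers. The count was 6 of 8 for stratified epithelium, 3 of 9 for milk, 1 of 5 for brown adipocytes, 1 of 6 for sebaceous gland and 0 of 6 for hepatocytes. Over all 20003 genes, 9971 reached 10 CPM in both libraries. Gli1, a target of the GLI factors, had 7 reads in the GANT61-labelled library and 32 in the DMSO-labelled library. Its mean was below 1 CPM, so it could not be called by the rule of size. Ptch1, another such target, had 1308 reads with GANT61 and 1413 reads with DMSO, a ratio of 1.02 (0.945 to 1.10).

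Fatty acid synthesis begins with citrate that leaves the mitochondrion and is cut to acetyl-CoA in the cytosol. Acetyl-CoA carboxylase turns acetyl-CoA into malonyl-CoA, and fatty acid synthase joins malonyl units into palmitate at the cost of NADPH. Elongases and desaturases lengthen the chain and add double bonds, acyl-CoA synthetases activate it, and acyltransferases and lipins place it on glycerol until a diacylglycerol acyltransferase completes triglyceride. Adipocytes, hepatocytes, lactating mammary epithelium and sebaceous glands run the whole route, whereas macrophages use parts of it for membranes, lipid droplets and lipid mediators.

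The windows around the start sites of 5 members, picked with their ratios known, are shown as examples from both directions of the comparison. They are not the most extreme members, since Mlxipl and Mogat1 had lower ratios than Fasn and also had windows. Fasn, Thrsp and Pnpla3 were among the members with much lower ratios, and Scd3 and Elovl4 were among those with higher ratios. The sequences are RefSeq promoter windows of 300 bases (250 before and 50 from the start site on, GRCm38.p6), written 5′ to 3′ on the gene's strand. Capitals mark 4 motifs on either strand, which are the CCAAT box (CCAAT), the GC box (GGGCGG), the E-box (CACGTG) and a sterol response element (TCACNCCAC).
Fasn, chr11:120824498-120824797, minus strand: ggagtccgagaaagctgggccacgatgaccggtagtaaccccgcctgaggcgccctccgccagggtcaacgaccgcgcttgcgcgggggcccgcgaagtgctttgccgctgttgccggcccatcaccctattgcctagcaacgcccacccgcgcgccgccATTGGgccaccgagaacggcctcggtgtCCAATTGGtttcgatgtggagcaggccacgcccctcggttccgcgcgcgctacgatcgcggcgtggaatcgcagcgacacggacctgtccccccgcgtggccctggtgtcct
Thrsp, chr7:97417501-97417800, minus strand: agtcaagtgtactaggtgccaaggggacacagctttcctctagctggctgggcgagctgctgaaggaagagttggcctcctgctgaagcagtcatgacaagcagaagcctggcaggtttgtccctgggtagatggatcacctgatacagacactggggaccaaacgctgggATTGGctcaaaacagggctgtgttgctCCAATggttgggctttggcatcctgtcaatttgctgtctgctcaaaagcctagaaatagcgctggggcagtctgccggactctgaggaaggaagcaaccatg
Pnpla3, chr15:84167566-84167865, plus strand: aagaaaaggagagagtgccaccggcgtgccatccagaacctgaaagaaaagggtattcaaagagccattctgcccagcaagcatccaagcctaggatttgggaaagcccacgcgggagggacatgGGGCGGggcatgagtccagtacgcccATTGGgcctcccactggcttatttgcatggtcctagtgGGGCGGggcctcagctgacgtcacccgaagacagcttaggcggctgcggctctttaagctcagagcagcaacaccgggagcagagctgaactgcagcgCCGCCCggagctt
Scd3, chr19:44203038-44203337, plus strand: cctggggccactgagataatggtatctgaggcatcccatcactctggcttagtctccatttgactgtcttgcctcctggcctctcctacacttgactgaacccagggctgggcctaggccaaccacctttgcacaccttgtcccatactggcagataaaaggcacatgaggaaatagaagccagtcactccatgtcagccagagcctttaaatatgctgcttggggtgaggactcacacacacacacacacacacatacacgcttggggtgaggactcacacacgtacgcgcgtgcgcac
Elovl4, chr9:83806256-83806555, minus strand: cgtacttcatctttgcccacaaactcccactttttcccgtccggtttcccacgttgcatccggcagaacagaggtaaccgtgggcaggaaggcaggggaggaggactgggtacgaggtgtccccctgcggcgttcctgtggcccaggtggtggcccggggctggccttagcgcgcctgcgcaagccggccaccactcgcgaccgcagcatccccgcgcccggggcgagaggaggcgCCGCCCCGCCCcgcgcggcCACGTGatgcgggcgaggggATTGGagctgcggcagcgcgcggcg

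The windows of the 3 lower members shown each held a CCAAT box. Counted from the start site at position 1, the matches in Fasn began at positions -90, -62 and -59, the last 2 overlapping as a CCAAT on each strand, and in Thrsp at -79 and -52. The Scd3 window held none of the 4 motifs, and the Elovl4 window held a CCAAT box, an E-box and overlapping GC boxes. RefSeq windows were matched for 33 of the 39 members, which gave 45 windows because some genes have several starts. A CCAAT box was in 21 of these 45 windows (46.7%), against 37.4% of all 32841 windows. By call, it was in 15 of 26 windows of lower members, 1 of 2 of higher members and 5 of 17 of members that were neither. In these splits by call, members with a mean below 1 CPM are counted as neither. GC boxes were in 24 of the 45 windows (53.3%), against 35.7% of all windows, and by call in 12 of 26 lower, 1 of 2 higher and 11 of 17 neither. The sterol response element was in 2, those of Acsl1 and Mlxipl, against 1.24% of all windows, and both were windows of lower members. The E-box was in 5 (11.1%), against 7.15%, and by call in 1 of 26 lower, 1 of 2 higher and 3 of 17 neither. A GLI motif (GACCACCCA) was in 0 of the 45 windows and in 0.253% of all windows. The DR4 repeat of nuclear receptors was in 0 of the 45 and in 5 windows of all. An exact pair of E-boxes spaced as in the carbohydrate response element, which overlaps the E-box search, was in 0 windows of all. These are matches of letters in one window and carry no test.

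Most members of the group were lower in the GANT61-labelled library, and the difference was uneven across the route. Of the 39 genes, 23 were lower, 3 were higher, 11 were neither and 2 had a mean below 1 CPM. Over all 13939 genes whose mean reached 1 CPM, 10.3% were lower and 14.1% were higher by the same rule. The median log2 ratio of the 37 members above that floor was -0.86, against -0.01 for all genes above it. Of the 37, Mogat1 passed the floor only through its level in the DMSO-labelled library, so its call was fixed by the filter. The rest of those called lower were above 1 CPM in both libraries. Fads3, Agpat3 and Lpin1 lay just inside the rule, at ratios of 0.657 to 0.662, and Scd2 and Elovl7 just outside it, at 0.715 and 0.716. Of the reads summed over genes, the 39 members together took 0.367% in the GANT61-labelled library and 1.20% in the DMSO-labelled library. In these bulk libraries, fewer cells of a type and less RNA per cell cannot be told apart.

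**Figure D1:**
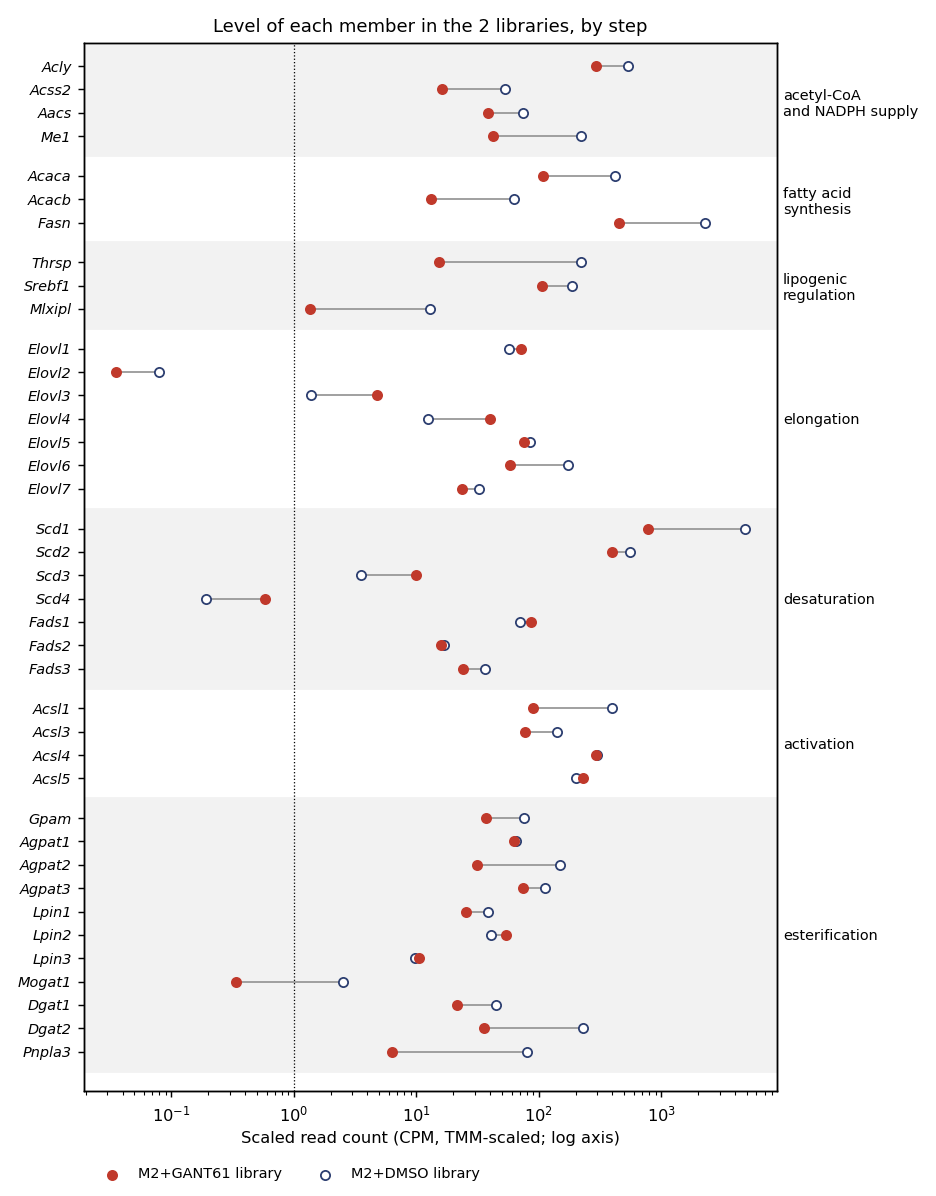
Scaled read counts (CPM, log axis) of the 39 members in the GANT61-labelled library (filled) and the DMSO-labelled library (open), by step, 1 library each; the dotted line marks 1 CPM. Scd1 and Fasn are the highest members in both libraries, and the widest gaps are those of Thrsp and Pnpla3.

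The 4 genes that supply acetyl-CoA and NADPH were all lower. Acly, which cuts citrate into acetyl-CoA, had 296 CPM in the GANT61-labelled library and 537 CPM in the DMSO-labelled library, a ratio of 0.551 (0.541 to 0.561). Acss2, which makes acetyl-CoA from acetate, had 16.1 CPM with GANT61 and 53.2 CPM with DMSO, a ratio of 0.303 (0.281 to 0.326). Aacs, which activates acetoacetate, had 38.9 CPM with GANT61 and 74.0 CPM with DMSO, a ratio of 0.525 (0.499 to 0.553). The lowest ratio of the step was that of Me1, the cytosolic malic enzyme, which yields NADPH. Me1 had 42.7 CPM in the GANT61-labelled library and 221 CPM in the DMSO-labelled library, a ratio of 0.193 (0.185 to 0.202). The ratio of Acly was thus nearer to 1 than that of Me1 by more than counting error, the only error that the intervals cover.

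The 3 enzymes of the synthesis step itself were all lower, with ratios from 0.198 to 0.258. Fasn, the fatty acid synthase (chromosome 11, 120805846 to 120824547, minus strand, mm10), had 25512 reads with GANT61 and 142057 reads with DMSO. These are 449 CPM with GANT61 and 2269.8 CPM with DMSO, a ratio of 0.198 (0.195 to 0.2004). Acaca, the acetyl-CoA carboxylase of the cytosol, had 108 CPM with GANT61 and 420.5 CPM with DMSO, a ratio of 0.258 (0.251 to 0.265). Acacb, the isoform on the outer mitochondrial membrane whose malonyl-CoA restrains fatty acid import, had 13.3 CPM with GANT61 and 63.4 CPM with DMSO, a ratio of 0.210 (0.194 to 0.227). The balance of the carboxylases was close in both libraries, since Acaca gave 88.4% of their summed RPKM (reads scaled by gene model length and library total) in the GANT61-labelled library and 86.2% in the DMSO-labelled library.

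The 3 regulators were lower, and among them was the lowest ratio of the whole group. Thrsp, a small acidic protein of lipogenic tissues (chromosome 7, 97412938 to 97417730, minus strand), had 866 reads in the GANT61-labelled library and 13860 in the DMSO-labelled library. This is 15.2 CPM with GANT61 and 221 CPM with DMSO, a ratio of 0.0688 (0.0642 to 0.0737). Mlxipl, which encodes the glucose-sensing factor ChREBP, had 77 reads with GANT61 and 813 reads with DMSO, a ratio of 0.105 (0.0815 to 0.132). Srebf1, whose product SREBP-1 activates many genes of the route, was less different, with 106 CPM with GANT61 and 188 CPM with DMSO and a ratio of 0.565 (0.548 to 0.583). Of the close relatives or partners of these regulators, 3 were picked after their values were seen, and each was neither. Mid1ip1, the paralogue of Thrsp, had a ratio of 1.05 (0.988 to 1.12). Mlx, the dimer partner of ChREBP, had a ratio of 0.95 (0.897 to 1.01), and Srebf2, the sterol-directed counterpart of Srebf1, had a ratio of 1.29 (1.24 to 1.34). The 3 come from 18 regulators in the list of other genes used below, of which 4 were lower, 0 were higher and 14 were neither. Insig1, which retains SREBP, was among those lower, at a ratio of 0.532 (0.509 to 0.556).

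**Figure D2:**
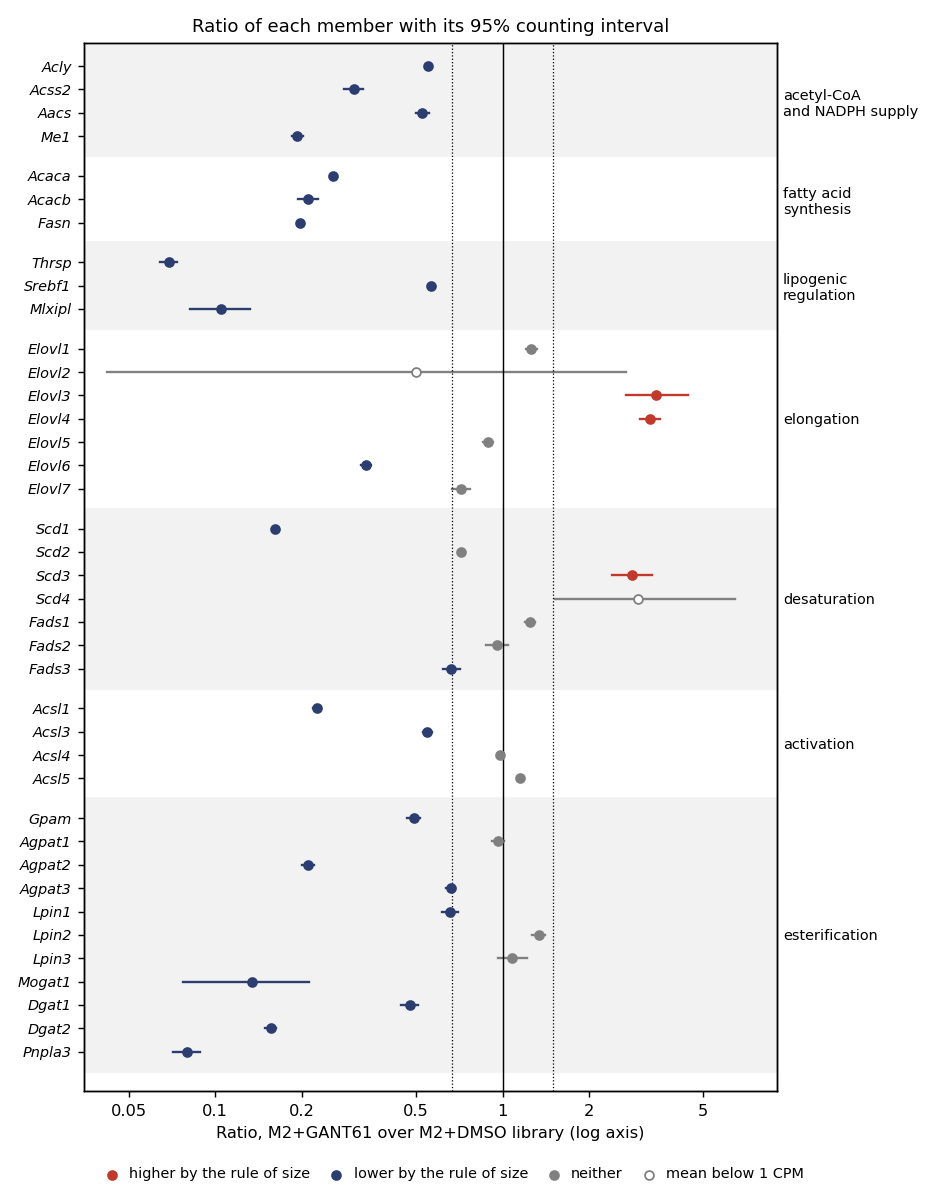
Ratio of the GANT61-labelled over the DMSO-labelled library (log axis) for each of the 39 members by step, with its exact 95% counting interval; dotted lines mark 1.5 and its inverse. Supply, synthesis and regulation lie wholly on the left, while elongation and desaturation hold members on both sides, with Elovl3, Elovl4 and Scd3 called higher.

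The elongases did not differ in one direction, and they held 2 of the 3 members called higher. Of the 6 elongases above 1 CPM, 2 were higher, 1 was lower and 3 were neither. Over all genes above 1 CPM, 14.1% were higher and 10.3% were lower by the same rule. Elovl4, which makes very long chains in skin, retina and brain, had 40.3 CPM in the GANT61-labelled library and 12.4 CPM in the DMSO-labelled library, a ratio of 3.25 (3.0 to 3.53). Elovl3, known in mouse from brown fat and sebaceous glands, had 271 reads with GANT61 and 87 reads with DMSO, a ratio of 3.42 (2.69 to 4.42). Elovl6, which lengthens palmitate to stearate and follows fatty acid synthase in the route, was the elongase called lower. It had 58.2 CPM with GANT61 and 174 CPM with DMSO, a ratio of 0.334 (0.321 to 0.347). Elovl1, Elovl5 and Elovl7 had ratios from 0.716 to 1.26 and were neither, and Elovl2 had 2 reads with GANT61 and 5 reads with DMSO. Summed over the 7 elongases, the level per length was 74.4 RPKM in the GANT61-labelled library and 79.5 RPKM in the DMSO-labelled library. Within this sum Elovl6 took 10.4% with GANT61 and 29.2% with DMSO, and Elovl4 took 14% with GANT61 and 4.05% with DMSO, so the composition differed more than the total.

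The stearoyl-CoA desaturases, which place the first double bond, lie side by side on mouse chromosome 19 and differed in direction. Scd1 (44394455 to 44407879, minus strand), the isoform of fat and liver, was the most abundant member in both libraries, by reads and per length. It had 44517 reads in the GANT61-labelled library and 304580 in the DMSO-labelled library, or 783 CPM with GANT61 and 4867 CPM with DMSO. Its ratio was 0.161 (0.159 to 0.163). Scd2 (44293674 to 44306864, plus strand), widely expressed in other tissues, had 395 CPM with GANT61 and 553 CPM with DMSO, a ratio of 0.715 (0.703 to 0.727), and was neither. Scd3 (44203269 to 44244016, plus strand), known from mouse sebaceous glands and the Harderian gland, was called higher. It had 568 reads with GANT61 and 222 reads with DMSO, a ratio of 2.81 (2.41 to 3.31). Scd4, known from heart, had 33 reads with GANT61 and 12 reads with DMSO and a mean below 1 CPM.

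Scd1 alone gave 21.0% of the scaled reads of all members in the GANT61-labelled library and 41.0% in the DMSO-labelled library. Of the RPKM of the 4 Scd genes, Scd1 took 68.2% with GANT61 and 90.8% with DMSO, and Scd2 took 30.5% with GANT61 and 9.15% with DMSO. The summed level of the 4 was 188 RPKM in the GANT61-labelled library and 879 RPKM in the DMSO-labelled library. The Scd genes are similar in sequence, and each of the 4 had a deposited count that was not whole in at least 1 library. How many reads the authors' counting shared between them was not tested.

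The 3 Fads genes of the desaturation step also lie together on chromosome 19. Fads1 and Fads2 were neither, and Fads3 was called lower. Fads1, the delta-5 desaturase, had 86.9 CPM in the GANT61-labelled library and 69.8 CPM in the DMSO-labelled library, a ratio of 1.25 (1.2 to 1.3). Fads2, the delta-6 desaturase, had 16.1 CPM with GANT61 and 16.8 CPM with DMSO, a ratio of 0.954 (0.872 to 1.04), whose interval spans 1. Fads3 was just inside the rule as lower, at 24.0 CPM with GANT61 and 36.3 CPM with DMSO and a ratio of 0.662 (0.619 to 0.709), and with the trend in gene length removed it was not called. The summed level of the 3 genes was 34.1 RPKM with GANT61 and 33.7 RPKM with DMSO.

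**Figure D3:**
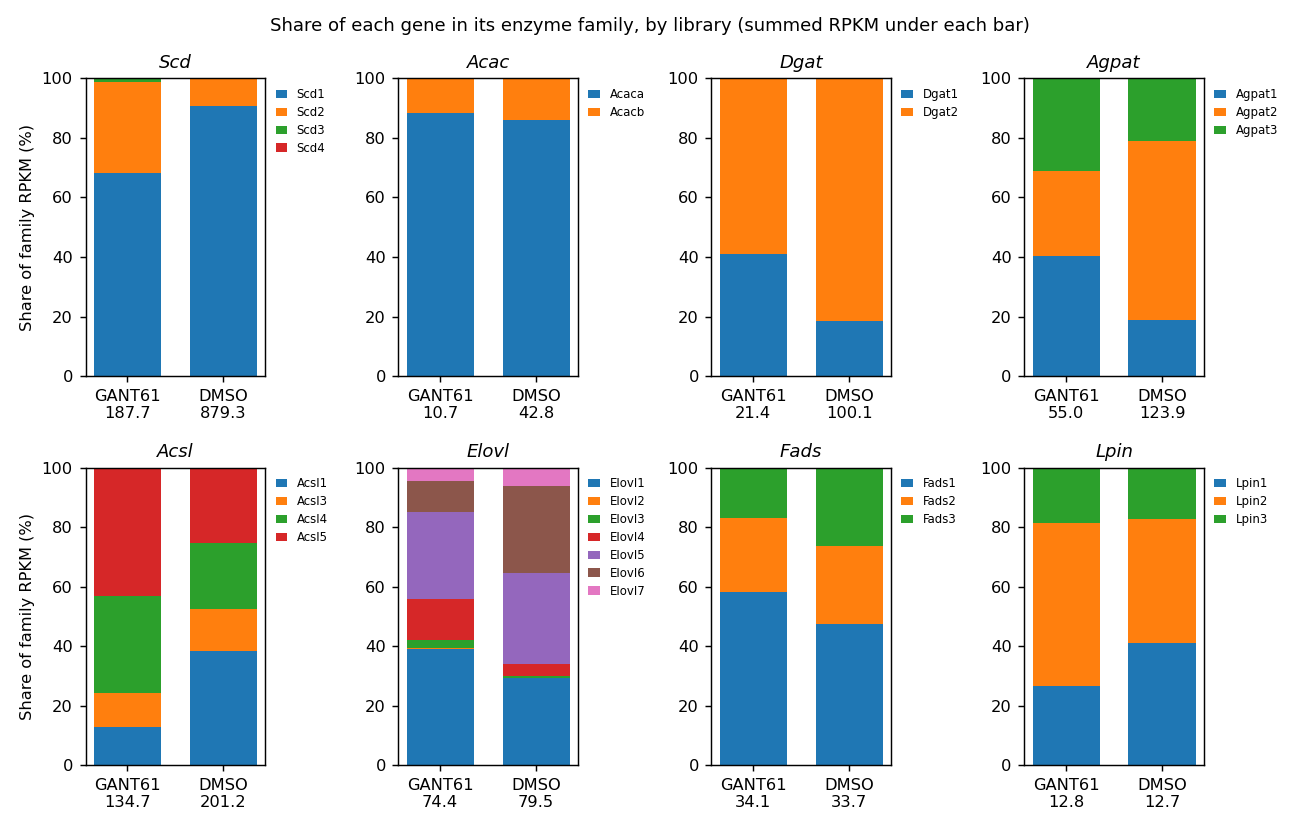
Share of each gene in the summed RPKM of its family (%, stacked from 0 to 100) in the GANT61-labelled library (left bar of each pair) and the DMSO-labelled library (right bar), with the summed RPKM under each bar. In the Scd, Dgat, Agpat and Acsl panels Scd1, Dgat2, Agpat2 and Acsl1 take a smaller share in the GANT61-labelled library.

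Among the acyl-CoA synthetases, which activate fatty acids for all later steps, Acsl1 and Acsl3 were lower and the others were neither. Acsl1, the main isoform of fat and muscle, had 90.3 CPM in the GANT61-labelled library and 399 CPM in the DMSO-labelled library, a ratio of 0.226 (0.220 to 0.233). Acsl3, an isoform of lipid droplets, had 77.2 CPM with GANT61 and 141 CPM with DMSO, a ratio of 0.547 (0.527 to 0.567). Acsl4, which prefers arachidonic acid, had 294 CPM with GANT61 and 299 CPM with DMSO, a ratio of 0.982 (0.961 to 1.002). Acsl5, on mitochondria and the endoplasmic reticulum, had 231 CPM with GANT61 and 201 CPM with DMSO, a ratio of 1.15 (1.12 to 1.18). By level per length, Acsl5 led the family in the GANT61-labelled library with 43.0% of the summed RPKM and Acsl1 led it in the DMSO-labelled library with 38.4%.

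Of the 11 esterification genes, 8 were lower, 0 were higher and 3 were neither. The isoenzymes of the final step differed in extent. Dgat2, the diacylglycerol acyltransferase tied to newly made fatty acids (chromosome 7, 99153658 to 99182719, minus strand), had 36.1 CPM in the GANT61-labelled library and 232 CPM in the DMSO-labelled library, a ratio of 0.156 (0.149 to 0.163). Dgat1, which catalyses the same reaction and is unrelated in sequence, had 21.5 CPM with GANT61 and 45.1 CPM with DMSO, a ratio of 0.476 (0.444 to 0.509). Dgat2 therefore gave 59.1% of their summed RPKM in the GANT61-labelled library and 81.5% in the DMSO-labelled library.

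Pnpla3, a lipid droplet protein of liver and fat with lipase and transacylase activity (chromosome 15, 84167837 to 84187236, plus strand), had the second lowest ratio of the group. It had 359 reads in the GANT61-labelled library and 4981 in the DMSO-labelled library, a ratio of 0.0795 (0.0711 to 0.0884). Mogat1, which acylates monoacylglycerol, had 19 reads with GANT61 and 159 reads with DMSO, a ratio of 0.135 (0.0772 to 0.212).

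At the second acylation, Agpat2, the isoform whose loss causes lipodystrophy in mouse and human, had 31.2 CPM in the GANT61-labelled library and 148 CPM in the DMSO-labelled library, a ratio of 0.210 (0.2 to 0.221). Agpat1 had 63.4 CPM with GANT61 and 65.8 CPM with DMSO, a ratio of 0.963 (0.921 to 1.01), and Agpat3 had 74.4 CPM with GANT61 and 113 CPM with DMSO, a ratio of 0.660 (0.635 to 0.685). By level per length Agpat1 led these paralogues in the GANT61-labelled library, with 40.4% of the summed RPKM, and Agpat2 led them in the DMSO-labelled library, with 60.3%. Gpam, the mitochondrial enzyme that adds the first acyl chain to glycerol phosphate, had 37.4 CPM with GANT61 and 76.1 CPM with DMSO, a ratio of 0.491 (0.467 to 0.517).

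The lipins, phosphatases that make diacylglycerol, had nearly equal sums in both libraries. Lpin1, the isoform of fat and muscle, had 25.6 CPM in the GANT61-labelled library and 38.9 CPM in the DMSO-labelled library. Its ratio of 0.657 (0.616 to 0.702) was just inside the rule as lower. Lpin2 had 54.2 CPM with GANT61 and 40.5 CPM with DMSO, a ratio of 1.34 (1.27 to 1.41), and Lpin3 had a ratio of 1.08 (0.965 to 1.21). The summed level of the 3 lipins was 12.8 RPKM with GANT61 and 12.7 RPKM with DMSO, of which Lpin2 gave 54.9% with GANT61 and 41.6% with DMSO.

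Summed per length, the steps differed in how far apart the libraries were. Synthesis had 46.4 RPKM in the GANT61-labelled library and 224 RPKM in the DMSO-labelled library, and desaturation had 222 RPKM with GANT61 and 913 RPKM with DMSO. Regulation had 29.8 RPKM with GANT61 and 195 RPKM with DMSO, supply had 76.4 RPKM with GANT61 and 179 RPKM with DMSO, and esterification had 95.1 RPKM with GANT61 and 261 RPKM with DMSO. Activation had 135 RPKM with GANT61 and 201 RPKM with DMSO, and elongation, as above, was nearest to equal. In scaled reads, not divided by length, the ratio of the sums was 0.207 for synthesis, 0.237 for desaturation and 0.291 for regulation, so the order of the steps depended on the scale.

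Other genes of the route, from a list of 50 measured genes that are not members, were mostly neither, and those called were mostly lower. Over all genes above 1 CPM, 10.3% were lower and 14.1% were higher by the same rule. Of the 50, 6 had a mean below 1 CPM. Of the other 44, 12 were lower, 1 was higher and 31 were neither, with a median log2 ratio of -0.18. The lowest was Gpd1, which makes glycerol phosphate, with 29.5 CPM in the GANT61-labelled library and 276 CPM in the DMSO-labelled library and a ratio of 0.107 (0.102 to 0.112). Pcx, pyruvate carboxylase, had a ratio of 0.178 (0.170 to 0.187) and Slc25a1, the citrate carrier, had a ratio of 0.357 (0.344 to 0.370). Both feed citrate to the cytosol, upstream of Acly.

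Regulators and handling proteins made up much of the rest of those called lower. Pparg, the master regulator of adipocytes, had 9.48 CPM with GANT61 and 39.7 CPM with DMSO, a ratio of 0.239 (0.217 to 0.262), and Cebpa, its partner factor, had a ratio of 0.553 (0.536 to 0.570). Insig1, which retains SREBP in the endoplasmic reticulum and is itself an SREBP target, had a ratio of 0.532 (0.509 to 0.556). Prkaa2, a catalytic subunit of AMP-activated kinase, had a ratio of 0.452 (0.339 to 0.593). Slc27a1, a fatty acid transporter, had a ratio of 0.515 (0.498 to 0.532), Fitm2, a lipid droplet protein, one of 0.426 (0.374 to 0.482) and Gpat3, a glycerol phosphate acyltransferase, one of 0.555 (0.523 to 0.589). Acsm3, a medium-chain acyl-CoA synthetase, had a ratio of 0.113 (0.0831 to 0.149), but it passed the floor only through the DMSO-labelled library, so its call was fixed by the filter. The gene called higher was Acsbg1, an acyl-CoA synthetase, with 61.5 CPM with GANT61 and 23.7 CPM with DMSO and a ratio of 2.59 (2.44 to 2.76). The remaining enzymes of the elongation cycle, which act with every elongase, had 0 of 6 called.

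Marker genes of cell types that run this route differed between the libraries beside the members. Of 14 adipocyte markers, 14 were lower, with ratios from 0.101 (Lep) to 0.272 (Aoc3) and a summed level of 1134 CPM in the GANT61-labelled library and 7033 CPM in the DMSO-labelled library. Of the 37 members above 1 CPM, 10 lay within that range of ratios, namely Me1, Acaca, Acacb, Fasn, Mlxipl, Scd1, Acsl1, Agpat2, Mogat1 and Dgat2. Thrsp and Pnpla3 lay below it, and 25 members lay above it. None of the 14 markers was at 0 reads in either library. The part of adipocyte RNA in the ratios of the members was not tested.

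Most milk genes of the secretory mammary epithelium were lower as well, and most markers of skin were higher. Of 9 milk genes, 7 were lower, 0 were higher, 1 was neither and 1 was below 1 CPM, with ratios from 0.00104 (0.000184 to 0.00261) for Csn1s2a, at 3 reads with GANT61 and 3704 reads with DMSO, to 1.34 for Xdh among the 8 above the floor. Csn1s2a and Csn1s1 passed the floor only through the DMSO-labelled library, so their calls were fixed by the filter. The summed level of the 9 was 503 CPM in the GANT61-labelled library and 665 CPM in the DMSO-labelled library. Xdh alone gave 390 CPM of this sum with GANT61 and 292 CPM with DMSO. Of 6 sebaceous gland markers, 4 were higher and 2 were below 1 CPM, and their summed level was 53.7 CPM with GANT61 and 18.0 CPM with DMSO. Of the 4, Awat1 and Awat2 passed the floor only through the GANT61-labelled library, so their calls were fixed by the filter. Of the 2 below the floor, Mc5r ran the other way, with 18 reads with GANT61 and 49 reads with DMSO, and Dgat2l6 had 45 reads with GANT61 and 4 reads with DMSO. Krt79, a keratin of sebaceous ducts, had 31.2 CPM with GANT61 and 11.2 CPM with DMSO, a ratio of 2.79 (2.56 to 3.06). Among 8 markers of stratified epithelium, 7 were higher, 0 were lower and 1 was neither, with a summed level of 1578 CPM with GANT61 and 866 CPM with DMSO. These stand beside Elovl3, Elovl4 and Scd3, and their part in those ratios was not tested.

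Macrophage markers were higher, opposite to most members and in the same direction as Elovl3, Elovl4 and Scd3. Their part in the ratios was not tested either. Of the 14 macrophage markers, 13 were higher, 0 were lower and 1 was neither, with log2 ratios from 0.39 to 1.75. Those of Scd3, Elovl4 and Elovl3 were 1.49, 1.70 and 1.77. The summed level of the markers was 7564 CPM in the GANT61-labelled library and 3623 CPM in the DMSO-labelled library. Fibroblast markers had a median log2 ratio of 0.14, with 1 of 8 lower, luminal epithelial markers one of -0.33, with 2 of 7 lower, and endothelial markers one of -0.42, with 2 of 6 lower. Brown adipocyte markers had 4 of 5 lower, but Ucp1, at 4 reads with GANT61 and 243 reads with DMSO, and Cox8b passed the floor only through the DMSO-labelled library, which fixed their calls. Of 6 hepatocyte markers, 2 were lower and 4 were below 1 CPM, and their summed level was 2.48 CPM with GANT61 and 11.9 CPM with DMSO.

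**Figure D4:**
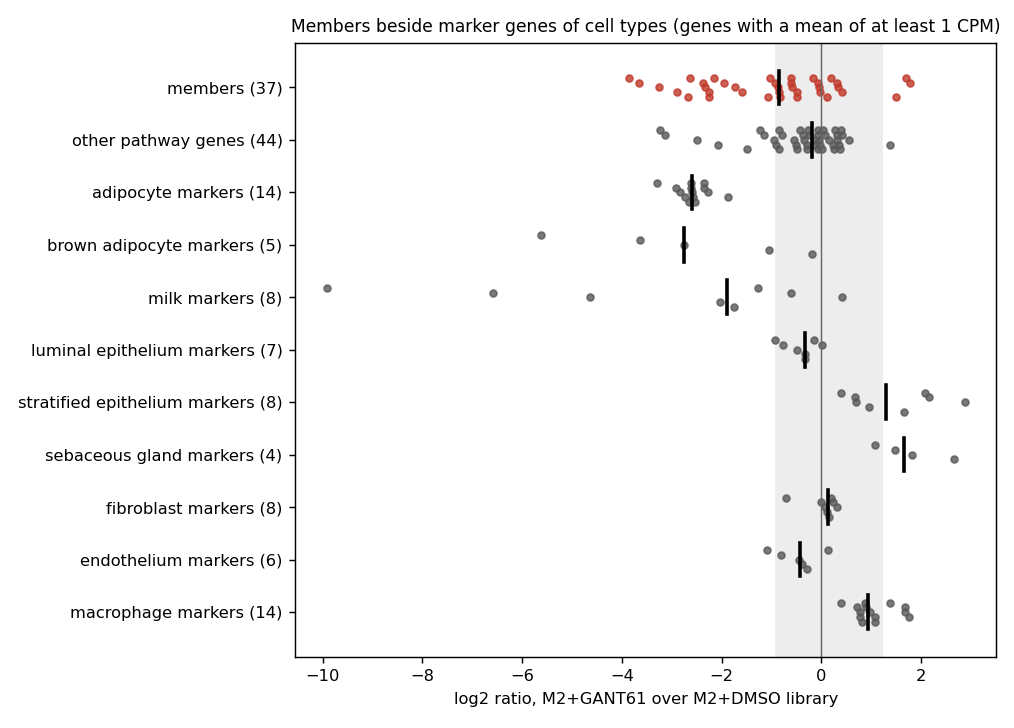
log2 ratio of the GANT61-labelled over the DMSO-labelled library for each gene whose mean reached 1 CPM (points), with the median of each list (bars) and the number of genes in brackets; the grey band spans the middle of all genes, from the 5th percentile at -0.91 to the 95th at 1.22 (5% below and 5% above). Members spread from the adipocyte markers on the left to the sebaceous gland, stratified epithelium and macrophage markers on the right.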

How the data were processed

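Messenger RNA was sequenced from 2 libraries on an Illumina HiSeq instrument. The authors deposited unnormalized estimated counts for each gene. They also deposited RPKM values, which scale reads by gene length and library total. Per the submitters' processing notes the tools were cutadapt, STAR, HISAT2, Partek and SAMtools, with builds hg19 and mm10 listed, while the counter, annotation, strand setting and versions are not given in the sources used here. Reads of overlapping or antisense genes may therefore not have been told apart. The treatment in each column name gave its library.

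Counts were rounded to whole numbers and scaled with TMM in edgeR 4.0.16 (R 4.3.3). Ratios used a prior count of 0.5 per library, with exact Clopper-Pearson intervals (scipy 1.17.1) that cover counting error only. Alternatives used DESeq2 1.42.0 size factors, total counts, upper quartiles, another prior, filter or fold, unrounded counts, deposited RPKM values and a correction for gene length. The ratio script was tested on simulated data. Positions are from GENCODE M21 (GRCm38, the mm10 assembly). Tables and figures were made with matplotlib 3.10.9, numpy 2.4.6 and pandas 2.3.3 under Python 3.11.15.

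The members and lists were chosen with earlier results of these data known. All members are described, together with up to 12 called genes of the other list by size of ratio. Mid1ip1, Mlx, Srebf2 and the marker genes named at the ends of a range were picked after their values were seen.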

Additional observations from a re-analysis of the deposited data

How the results depend on the processing

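No paired analysis was possible because each group had 1 library, and for the same reason no library could be left out. Of 10 alternatives, those that changed only the filter or the fold left every ratio as it was. The others reversed the direction of 0 called members. Changes of scaling moved the log2 ratio of a member above 1 CPM by at most 0.044, too little to reverse any call. The number of members called lower was 22 or 23 except at a fold threshold of 2, where it was 16, with Acly, Aacs, Srebf1, Fads3, Acsl3, Agpat3 and Lpin1 no longer called. At that threshold 972 genes of all were higher and 595 lower. The number of members called higher was 3, except for 4 with no filter on low values, which added Scd4, and 2 with a mean of at least 5 CPM, which dropped Elovl3. The median log2 ratio of the members was -0.904 with total counts, -0.900 with upper quartiles and -0.895 with the length trend removed, and in each the median of all genes shifted by less than 0.1. With the length trend removed Fads3 was not called and the ratio of Fads2, whose interval spans 1, passed to the other side of 1. The median of the elongases, 0.08, was -0.17 both at 5 CPM, where Elovl3 was left out, and with no filter on low values, where Elovl2 was added. Shares within a family do not depend on the scaling, whereas summed RPKM carry the authors' own scaling of each library. Between the libraries, GANT61 over DMSO, that scaling had a ratio of 0.912, against 0.936 for the counts summed over genes. The limits are a single library per group, mixed cell markers in both and close paralogues among the Scd genes.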
